A study of Mus musculus with 4 samples.

Results

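Open chromatin around 10 genes of lipid droplet coating and triglyceride turnover was described in newborn mouse hearts: Plin2, Plin3, Plin4, Plin5, Pnpla2, Abhd5, G0s2, Lipe, Dgat1 and Dgat2. Peaks of the 4 deposited lists were merged where they shared 1 bp or more, and a merged region belonged to a gene if it overlapped the gene body extended by 20 kb each side. This gave 56 regions of 53140 in all. The genes were chosen for their known roles. ATAC-seq, which reads accessible chromatin from the places a transposase can cut and tag, had been run on nuclei of whole hearts at postnatal day 0 in the strain C57BL/6. The edKO hearts (edKO 1 and edKO 2) were labelled as lacking RXR alpha and RXR beta in cardiomyocytes (RXRab-/-), and the wild-type hearts (WT 1 and WT 2) carried no labelled change. Each library came from 1 heart. What drives the deletion in cardiomyocytes, and the sex of the animals, is not given in the sources used here. The other cells of the heart were not targeted, so a different share of cardiomyocyte nuclei and a different accessibility per nucleus cannot be told apart.

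Fatty acids that enter a heart muscle cell are either burned in mitochondria or stored as triglyceride in lipid droplets. The perilipins coat the droplet and control access to it. Lipases cut triglyceride step by step into fatty acids, and the 2 DGAT enzymes make triglyceride again from diacylglycerol. Fatty acids released from droplets can act as ligands of PPAR receptors, which bind DNA together with RXR. Newborn hearts switch from glucose to fatty acids as the main fuel with the onset of suckling. The title of the study names a fatty acid of maternal milk, and the comparison of edKO with WT hearts asks which accessible sites depend on the RXR receptors.

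The libraries did not have equal sensitivity. The authors' lists held 27473 and 27142 peaks in edKO 1 and edKO 2, and 35279 and 38809 in WT 1 and WT 2. The lowest local background of a list, which stands here for depth, was 1.51 and 1.92 in the edKO hearts and 1.81 and 1.80 in the WT hearts. Over the 10000 strongest peaks of each list, the authors' fold enrichment had a median of 10.2 and 7.61 in the edKO hearts and 10.8 and 11.5 in the WT hearts. A missing call therefore means that a site stayed below the authors' threshold in that library, and the part of these differences in the calls given here was not tested. All 7 cardiomyocyte markers examined had a peak at a gene end in every library. Of the 6 adipocyte markers, 1 and 0 had one in edKO 1 and edKO 2 and 2 in each WT heart. Adipoq, the gene of the adipocyte hormone adiponectin, was marked at a gene end in neither edKO heart but in each WT heart. Plin1 was marked in edKO 1 and in each WT heart, and Lep, Cidec, Retn and Ucp1 had none in any heart. Of the 5 fibroblast markers, 1 had a gene-end peak in each edKO heart and 2 and 3 in WT 1 and WT 2, and of the 4 immune markers 0 in each edKO heart and 1 in each WT heart. Other lists did not show that order: of the 5 endothelial markers 2 had one in each edKO heart and 1 and 2 in WT 1 and WT 2, of the 3 erythroid markers 1 in every heart, and of the 4 hepatocyte markers 1 and 0 in edKO 1 and edKO 2 and 1 in each WT heart. The part of these cell types in the calls was not tested. Of all 14123 regions within 1 kb of a gene end, 75.4% and 77.5% were called in edKO 1 and edKO 2. In WT 1 and WT 2 it was 83.1% and 86.2%. The targeted genes Rxra and Rxrb had called regions in all 4 libraries, and each had 1 WT-only region. At Rxra 5 regions were called in each edKO heart and 6 and 7 in WT 1 and WT 2, and at Rxrb 1 in each edKO heart and 2 in each WT heart. This does not check the labels, because the deleted exons were not located.

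Of all patterns of calls around the lipid droplet genes, a call in every heart was the most frequent. Of the 56 regions, 26 (46.4%) were called in all 4 hearts, against 34.4% of the 43965 regions around all protein-coding genes with the same extension. A further 9 (16.1%) were called in 3 hearts, 4 (7.14%) in 1 edKO and 1 WT heart, and 15 (26.8%) in 1 heart only. Around all protein-coding genes these shares were 12.5%, 6.11% and 36.8%, and over all regions 12.6%, 6.16% and 39.3%. No region was called in both edKO hearts and in neither WT heart (edKO-only), of 27 called in both edKO hearts, against a background of 1.35% of all such regions and 1.24% of those around protein-coding genes. Of the 36 regions called in both WT hearts, 2 (5.56%) were called in neither edKO heart (WT-only), against 19.4% of all regions called in both WT hearts and 17.7% of those around protein-coding genes. The 2 WT-only regions lay over the downstream start of Lipe, the hormone-sensitive lipase, and upstream of Plin5, a muscle perilipin, inside its neighbour Lrg1. The count of 2 depends on the libraries: it was 8 without WT 1, 8 without edKO 1, 4 without edKO 2 and 3 without WT 2. These were 18.2%, 22.2%, 11.1% and 7.50% of the regions called in the remaining WT hearts, against 34.2%, 35.9%, 24.6% and 30.4% over all regions. Without edKO 1, 6 regions were edKO-only (15.8% of those called in edKO 2, against 24.2% over all regions). Without edKO 2, 3 were (8.11% against 10.1%), and without WT 2, 1 was (3.70% against 3.61%).

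**Figure D1:**
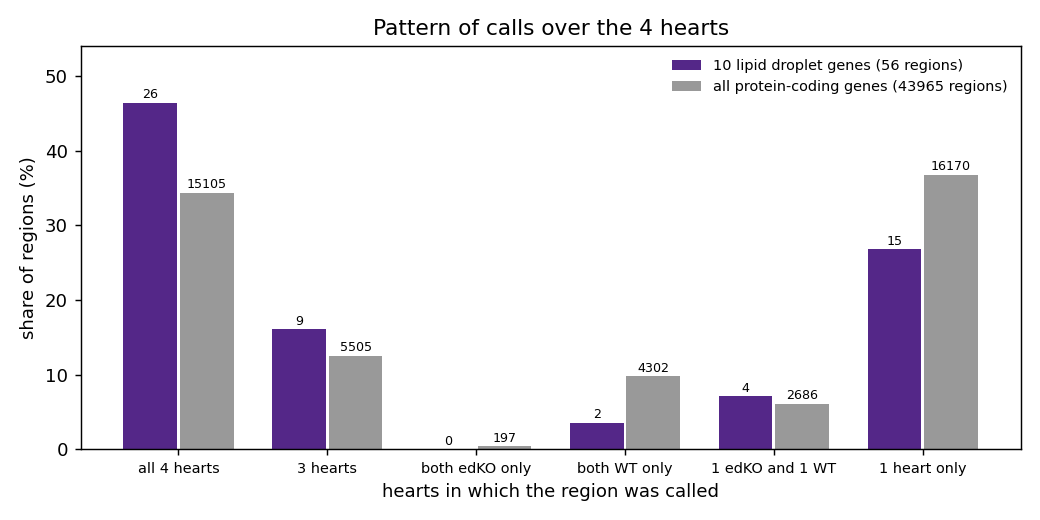
Share of regions (y axis, %) by the hearts in which they were called (x axis), for the 56 regions of the 10 genes and the 43965 regions around all protein-coding genes. Numbers over the bars are regions. The 10 genes had 26 regions in all 4 hearts, 0 in both edKO hearts only and 2 in both WT hearts only.

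By number, 37 and 38 of the 56 regions were called in edKO 1 and edKO 2, and 39 and 44 in WT 1 and WT 2. The mean was 37.5 ± 0.707 in edKO hearts and 41.5 ± 3.54 in WT hearts (SD, n = 2 each), a ratio of 0.904 where all regions gave 0.728. The exact permutation test over the 4 libraries, two-sided, gave p = 0.333, which is the smallest value that 2 hearts against 2 allow. Many regions of these windows lie at the ends of other genes. When a region counted only if its nearest protein-coding gene end belonged to 1 of the 10 genes, 29 regions remained, with 18 and 21 called in the edKO hearts and 20 and 21 in the WT hearts (19.5 ± 2.12 and 20.5 ± 0.707), and the groups overlapped (exact permutation p = 1).

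The position of the regions bears on these shares. Regions within 1 kb of any protein-coding gene end made up 32 of the 56, against 14123 of all 53140 regions. Of these 32, 20 (62.5%) were called in all 4 hearts, against 65.3% of all gene-end regions. Of the other 24, 6 (25.0%) were, against 18.8% of all regions away from gene ends. Among 25 gene-end regions with a call in each WT heart 1 was WT-only, against a background of 5.92%. Among the 11 away from gene ends it was likewise 1, against 27.9%. In the windows of the 10 genes the median number of regions was 5.5, against 3 over all 21631 protein-coding genes, and the median number of WT-only regions was 0 in both. WT-only regions stood in the windows of 3 of the 10 genes (Plin4, Plin5 and Lipe, the first pair sharing a region), a share close to the 31.3% of all gene windows with a region called in both WT hearts. An edKO-only region stood in none of the 10 windows, where 2.23% of all windows had one. Lipe was the only gene of the 10 with fewer regions called in each edKO heart than in each WT heart, a pattern that 23% of all gene windows showed.

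**Figure D2:**
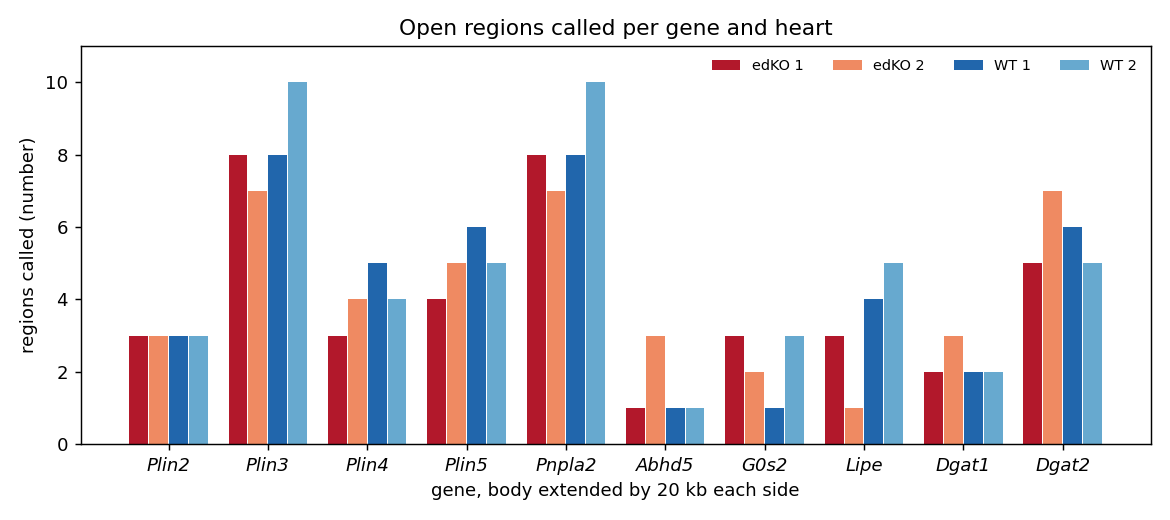
Number of regions called (y axis) in each heart for each gene with 20 kb either side (x axis). Lipe had 3 and 1 regions in edKO 1 and edKO 2 and 4 and 5 in WT 1 and WT 2, while Plin2 had 3 in every heart. Plin4 and Plin5 share 6 regions.

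Of the coat proteins, Plin2 is the perilipin found on droplets of nearly all cells. Its gene (chromosome 4, 86626910 to 86670217) had 3 regions, each called in all 4 hearts. The region over its start (chr4:86669846-86670228) was weak among the starts examined, with the authors' −log10 p at 8.66 and 7.25 in edKO 1 and edKO 2 and at 13.4 and 20.1 in WT 1 and WT 2. The summit was covered by 13 and 14 fragments in the edKO hearts and by 22 and 27 in the WT hearts. Both edKO values lay below both WT values. The −log10 p, which is the authors', grows with depth and enrichment, and 74.7% of all 16568 regions called in the 4 hearts show that order, so each region was also ranked within its own list among these 16568. The Plin2 start stood at the 14.9th and 16.6th percentile in the edKO hearts and at the 18.9th and the 30th in the WT hearts, again without overlap. Both other regions were a site inside the gene, 12.3 to 12.9 kb downstream of the start (chr4:86657168-86657715), and the strongest of the window at the end of the neighbour Haus6 (chr4:86611595-86612419). The percentiles were 29.2 and 36.8 in edKO hearts and 32.6 and 41.8 in WT hearts at the inner site, which overlapped. At the Haus6 site they were 70.9 and 74.3 in edKO hearts and 77.7 and 86.0 in WT hearts, without overlap. Such an order in rank is common. Of all 16568 regions, 19.9% ranked lower in each edKO heart than in each WT heart, and 20.2% ranked higher.

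Plin3, which moves between cytosol and droplets and is expressed in most tissues (chromosome 17, 56278962 to 56290511), had 10 regions, 6 of them called in all 4 hearts. The region over its start (chr17:56290396-56290799) had a −log10 p of 28.0 and 20.8 in the edKO hearts and 39.9 and 45.8 in the WT hearts. Its ranks were nearly equal, at the 63.6th and 66.3rd percentile in the edKO hearts and the 62.8th and 64.1st in the WT hearts. A second region lay 590 bp upstream (chr17:56291101-56291745), with percentiles of 73.3 and 52.6 in the edKO hearts and 54.9 and 65.3 in the WT hearts. The strongest region of the window was that at the end of Ticam1, with 83.3 and 78.9 in the edKO hearts and 78.0 and 81.9 in the WT hearts. The groups overlapped at all 3 sites. The window also reaches Fem1a, Arrdc5 and Uhrf1, and 7 of its 10 regions lay nearer to an end of another gene than to Plin3.

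Plin4 and Plin5 are neighbours on chromosome 17 (56100587 to 56109948 and 56111597 to 56117606), and the 6 regions of Plin4 are all among the 7 of Plin5. Plin4 coats small droplets in fat and muscle, and Plin5 holds droplets against mitochondria in tissues that burn fat, the heart among them. The region over the Plin4 start (chr17:56109539-56110095) was the strongest of both windows. It had a −log10 p of 48.3 and 35.4 in the edKO hearts and 64.6 and 65.4 in the WT hearts, and its summit was covered by 82 and 74 fragments in the edKO hearts and 119 and 109 in the WT hearts. In rank it stood slightly higher in both edKO hearts (percentiles 80.5 and 82.0) than in both WT hearts (79.0 and 76.8). A region 701 to 1243 bp inside Plin4 (chr17:56108539-56109081) showed the same order, at 69.4 and 70.3 in the edKO hearts and 64.1 and 48.1 in the WT hearts. The region in the Plin5 window alone (chr17:56133722-56134301) was also called in all 4 hearts, and its nearest gene end was that of Sema6b. It ranked higher in both edKO hearts (32.0 and 57.9) than in both WT hearts (10.2 and 27.7).

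The region over the Plin5 start (chr17:56117214-56117758) was not called in edKO 1. In edKO 2 it had a −log10 p of 5.62 with 21 fragments at the summit, and in WT 1 and WT 2 19.8 and 15.9 with 48 and 41 fragments. The WT values thus lay above the edKO 2 value, and edKO 1 had no call. Calls missing in edKO 1 alone made up 1448 of the 28087 regions called in both WT hearts, and those missing in edKO 2 alone 4631. The region covers both starts that RefSeq gives for Plin5, which are 250 bp apart. Upstream of it, a region 2770 to 3041 bp from the outer start (chr17:56120318-56120589, inside Lrg1 and 640 bp from its end) was WT-only, with 6.78 in WT 1 and 9.96 in WT 2 on that scale. Its neighbour 220 bp from the end of Lrg1 (chr17:56119898-56120267) was called in edKO 1 and WT 1, at 5.69 and 16.4. With a minimum −log10 p of 10 in every list, the start regions of Plin5 and Plin2 both became WT-only, and the region upstream of Plin5 no longer counted.

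Of the starts shown as sequence, those of Plin5 and Plin2 carry the half-site that nuclear receptors of the RXR family bind, as does that of Abhd5. The windows are from RefSeq (GRCm38.p6), 250 bases before to 50 after the start, 5′ to 3′ on the strand of the gene. Capitals mark AGGTCA (the half-site), GGGCGG (the GC box bound by Sp factors) and CACGTG (an E-box), each on either strand, and overlapping matches run together. The coordinates are chr17:56117499-56117798 (minus strand) for Plin5, chr4:86670010-86670309 (minus strand) for Plin2 and chr9:122351366-122351665 (plus strand) for Abhd5.
Plin5 outer start: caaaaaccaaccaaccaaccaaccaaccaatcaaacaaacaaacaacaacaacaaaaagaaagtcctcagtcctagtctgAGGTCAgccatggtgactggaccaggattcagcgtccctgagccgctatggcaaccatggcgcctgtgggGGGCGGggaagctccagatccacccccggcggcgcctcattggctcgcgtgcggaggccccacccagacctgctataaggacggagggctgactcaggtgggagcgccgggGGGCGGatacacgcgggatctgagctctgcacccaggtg
Plin2 start: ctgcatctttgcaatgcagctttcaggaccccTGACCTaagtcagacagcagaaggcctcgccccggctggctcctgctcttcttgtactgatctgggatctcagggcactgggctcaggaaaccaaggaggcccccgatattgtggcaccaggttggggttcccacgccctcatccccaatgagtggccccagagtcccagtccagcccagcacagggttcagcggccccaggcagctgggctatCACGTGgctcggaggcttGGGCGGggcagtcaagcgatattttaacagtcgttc
Abhd5 start: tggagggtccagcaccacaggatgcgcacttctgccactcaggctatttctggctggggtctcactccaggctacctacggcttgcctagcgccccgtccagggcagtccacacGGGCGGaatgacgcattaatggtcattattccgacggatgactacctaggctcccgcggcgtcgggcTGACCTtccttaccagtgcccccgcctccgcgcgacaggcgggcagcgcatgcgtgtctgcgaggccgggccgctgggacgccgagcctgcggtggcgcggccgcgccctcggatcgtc

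The half-site AGGTCA or its reverse TGACCT was found in 4 of the 10 RefSeq start windows that matched these genes (8 of the 10 genes matched), against 16.3% of all 32851 windows. It lay 170 bp before the outer Plin5 start and, in the window of the inner start, 13 bp after it, 218 bp before the Plin2 start and 69 bp before the Abhd5 start. DR1, the direct repeat of the half-site with 1 base between, which PPAR with RXR is known to bind, was in none of the 10 windows and in 0.0396% of all. GGGCGG or CCGCCC was in 8 of the 10 windows, against 35.7% of all. The median GC content was 63% in the 10 windows and 52.7% over all windows. The Plin5 windows overlap each other and share a GC box, so the 10 windows are not separate promoters. All these motif counts are matches of letters and not measured binding sites.

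Pnpla2 (chromosome 7, 141455188 to 141460743) encodes ATGL, the lipase that removes the first fatty acid from triglyceride. Its window is crowded, with 7 other genes and 10 regions, 7 of them called in all 4 hearts. The region over its start (chr7:141454848-141455565) had the highest mean percentile in the lists, at −log10 p of 38.8 and 19.7 in the edKO hearts and 35.3 and 39.8 in the WT hearts. Here the groups overlapped in −log10 p, and in rank it stood higher in both edKO hearts (percentiles 74.0 and 64.2) than in both WT hearts (57.8 and 58.5). The adjoining region 527 to 1366 bp inside the gene (chr7:141455715-141456554) differed more, at 66.5 and 71.0 in the edKO hearts and 48.3 and 20.2 in the WT hearts. Its mean rank was 34.5 percentile points higher in edKO than in WT hearts, the most positive difference of the 26 shared regions. The −log10 p was 30.6 and 24.0 in the edKO hearts and 28.0 and 15.7 in the WT hearts. The summit was covered by 60 and 58 fragments against 72 and 47, so the groups overlapped on both of these scales. The WT hearts also stood far apart from each other at this region.

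Abhd5 encodes CGI-58, the protein that activates ATGL (chromosome 9, 122351616 to 122381524). The region over its start (chr9:122351362-122352237) was called in all 4 hearts, at −log10 p of 66.6 and 40.9 in the edKO hearts and 69.2 and 69.6 in the WT hearts, with 77 and 55 against 88 and 91 fragments at the summit. In rank it was higher in both edKO hearts (88.2 and 85.8) than in both WT hearts (80.8 and 78.6). The gene has no neighbour within 20 kb, and its other 2 regions were called in edKO 2 alone, at −log10 p of 4.47 and 6.04.

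G0s2 encodes a small protein that binds and inhibits ATGL (chromosome 1, 193272160 to 193273188). The region over its start (chr1:193272782-193273696) had a −log10 p of 13.5 and 10.5 in the edKO hearts and 28.2 and 40.6 in the WT hearts. The summit was covered by 22 and 20 fragments in the edKO hearts and by 45 and 61 in the WT hearts. In rank it stood at the 33.9th and 36.3rd percentile in the edKO hearts and at the 48.6th and 59.3rd in the WT hearts. The groups did not overlap on either scale. Of all 16568 regions called in the 4 hearts, 74.7% show that order in −log10 p and 19.9% in rank. At the G0s2 start the mean rank was 18.9 percentile points lower in edKO hearts. Among the starts of the 10 genes called in all 4 hearts this was the most negative difference. Within 20 kb, the body of Hsd11b1 held a region called in both edKO hearts and WT 2 (chr1:193255853-193256266, −log10 p of 6.83, 5.24 and 6.31 in edKO 1, edKO 2 and WT 2).

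Lipe encodes hormone-sensitive lipase, which cuts diacylglycerol after ATGL (chromosome 7, 25379527 to 25398486), and is known to be transcribed from alternative first exons in different tissues. The RefSeq start windows give 2 starts in the same direction, 5875 bp apart, and they differed in their calls. The RefSeq gene body reaches further upstream, to 25398486, 2184 bp from the region over the upstream start. No region was called over that end in any heart. The region over the upstream start (chr7:25395357-25396302) was called in all 4 hearts, at −log10 p of 31.0 and 27.3 in the edKO hearts and 50.6 and 63.7 in the WT hearts, with summits within 7 bp. Its ranks overlapped, at percentiles 66.9 and 75.1 in the edKO hearts and 71.0 and 76.0 in the WT hearts. The region over the downstream start (chr7:25389970-25390402) was WT-only. WT 1 had a −log10 p of 7.62 there with 29 fragments at the summit, and WT 2 had 14.1 with 40 fragments. It spans 290 bp before to 142 bp after that start. It stayed WT-only with lists of equal length, and with a minimum −log10 p of 10 it was called in WT 2 alone.

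The largest gap in call strength at Lipe was at a region inside the gene, 3393 to 3870 bp downstream of the inner start (chr7:25386242-25386719), which was singled out after its values had been seen. It had a −log10 p of 12.3 in edKO 1 and no call in edKO 2, against 55.7 and 54.5 in WT 1 and WT 2. Its summit was covered by 21 fragments in edKO 1 and by 89 and 86 in the WT hearts, and it stood at the 54.6th percentile of the whole list in edKO 1 and at the 87.9th and 87.4th in the WT lists. A further region 2628 bp beyond the far end of the gene (chr7:25376561-25376899) was also called in edKO 1 and in both WT hearts and missed in edKO 2, at 8.51, 11.6 and 15.7. Calls missing in edKO 2 alone are common, at 16.5% of all regions called in both WT hearts. The library edKO 2 has the lowest enrichment, and the part of this in the missing calls at Lipe was not tested. The 2 start windows of Lipe are shown because the calls differ between them, with capitals as above and coordinates chr7:25395938-25396237 and chr7:25390063-25390362, both on the minus strand.
Lipe upstream start: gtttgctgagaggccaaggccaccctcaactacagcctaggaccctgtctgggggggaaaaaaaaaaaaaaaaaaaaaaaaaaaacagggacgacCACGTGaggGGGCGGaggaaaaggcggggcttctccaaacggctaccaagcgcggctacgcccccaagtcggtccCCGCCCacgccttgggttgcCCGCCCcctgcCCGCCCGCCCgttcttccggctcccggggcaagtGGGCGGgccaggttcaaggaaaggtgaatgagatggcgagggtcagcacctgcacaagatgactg
Lipe downstream start: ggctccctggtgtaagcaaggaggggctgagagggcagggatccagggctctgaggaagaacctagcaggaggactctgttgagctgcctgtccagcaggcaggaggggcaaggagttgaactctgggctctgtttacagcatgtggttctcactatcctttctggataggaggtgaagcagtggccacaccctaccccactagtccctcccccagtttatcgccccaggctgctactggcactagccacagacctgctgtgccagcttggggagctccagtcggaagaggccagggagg
The upstream window holds 6 matches of the GC box and 1 CACGTG, and the downstream window holds no match of any of these motifs. The GC content of the windows was 61.0% and 60.0%, against a median of 52.7% over all RefSeq start windows.

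**Figure D3:**
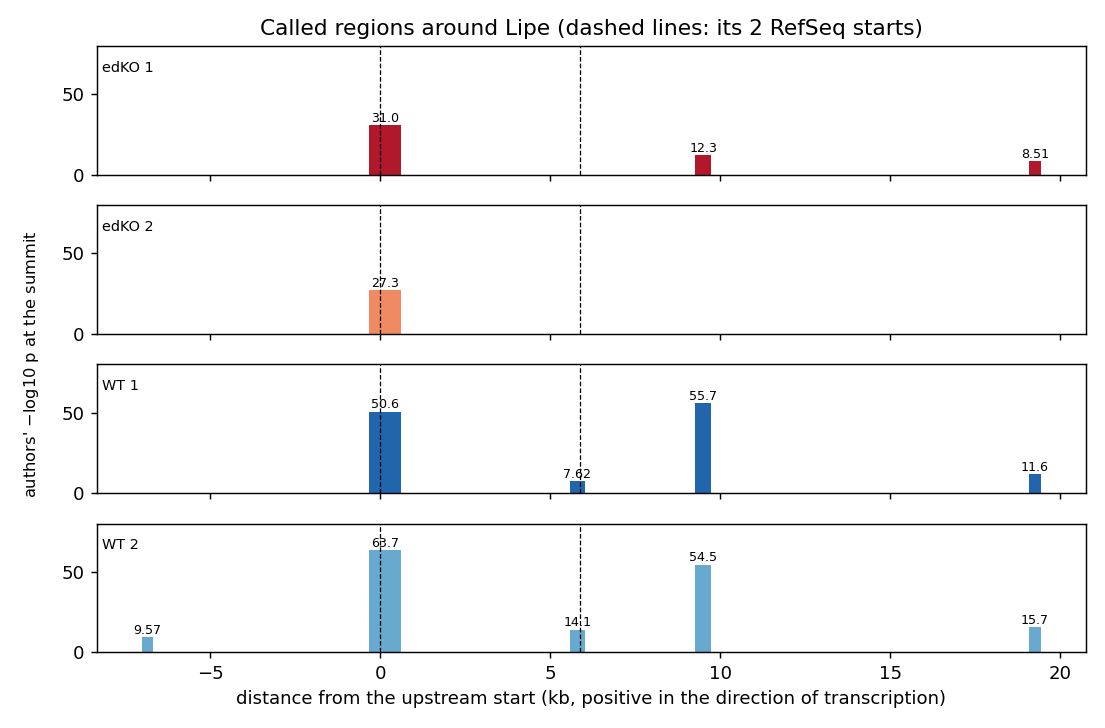
Called regions around Lipe in each heart, with the distance from the upstream start in kb on the x axis and the authors' −log10 p at the summit on the y axis. Bar width is the merged region. The region at the downstream start (the second dashed line) was called in WT 1 and WT 2, at 7.62 and 14.1, and in neither edKO heart, and the region inside the gene had 12.3 in edKO 1 against 55.7 and 54.5 in the WT hearts.

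Dgat1 and Dgat2 encode the 2 unrelated enzymes that join the last fatty acid to diacylglycerol. The region over an end of Dgat1 (chr15:76511358-76512266, the gene at 76502012 to 76512021) was the strongest of all regions over an end of the 10 genes, at −log10 p of 86.5 and 55.4 in the edKO hearts and 130 and 136 in the WT hearts. Its ranks were 93.0 and 91.9 in the edKO hearts and 95.3 and 94.5 in the WT hearts, a mean difference of −2.44 percentile points. The other 4 regions of the window were called in at most 1 edKO and 1 WT heart.

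Dgat2 (chromosome 7, 99153663 to 99182713) had 9 regions. That over an end of the gene (chr7:99182538-99183251) had a −log10 p of 50.3 and 34.4 in the edKO hearts and 48.3 and 43.6 in the WT hearts, and stood higher in rank in both edKO hearts (81.4 and 81.3) than in both WT hearts (69.5 and 62.1). The strongest region of the window belongs to the end of Uvrag, an autophagy gene (chr7:99140917-99141687), at percentiles 99.4 and 99.1 in the edKO hearts and 99.6 and 99.8 in the WT hearts. A region between Dgat2 and Mogat2, which encodes a monoacylglycerol acyltransferase (chr7:99201904-99202538), had the most negative rank difference of the 26 shared regions, at −25.4 percentile points, and was singled out for it. Its −log10 p was 8.65 and 10.9 in the edKO hearts and 34.0 and 30.7 in the WT hearts, with 14 and 18 against 55 and 48 fragments at the summit. A region 1811 bp from Dgat2 (chr7:99151365-99151852) was called in edKO 1 at 14.4, in WT 1 at 31.9 and in WT 2 at 23.2. One inside the gene (chr7:99161448-99161881) was called in edKO 2 at 5.64 and in WT 1 and WT 2 at 17.1 and 9.38.

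**Figure D4:**
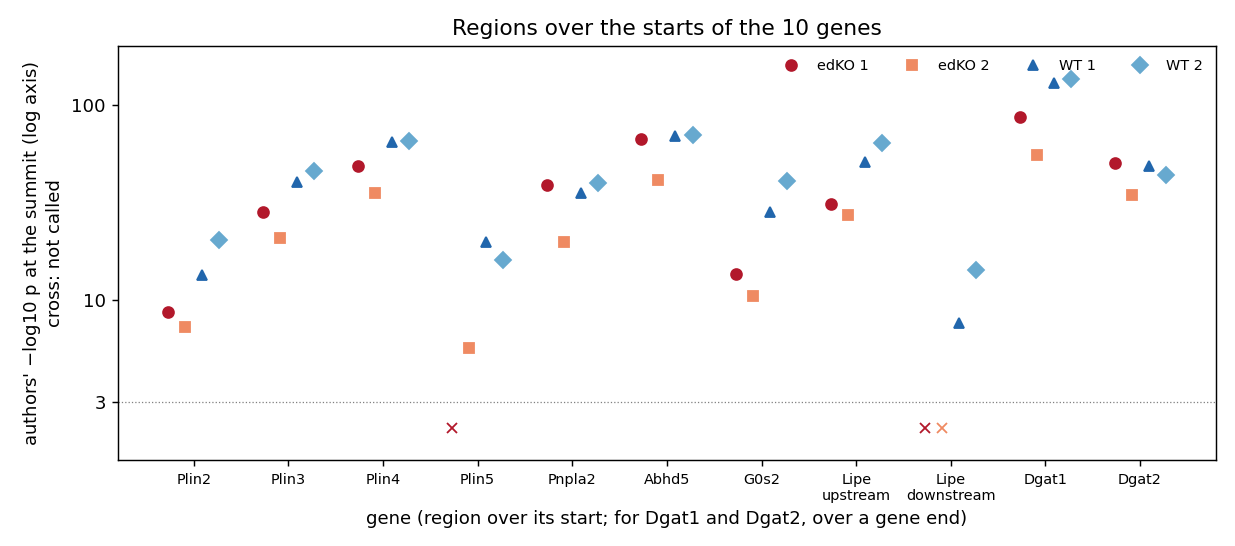
The authors' −log10 p at the summit (y axis, log scale) of the regions over the starts of the 10 genes, or over a gene end for Dgat1 and Dgat2, in each heart. A cross marks a heart with no call, and the dotted line is at 3, near the lowest value deposited. Plin5 had no call in edKO 1 and the downstream start of Lipe none in either edKO heart.

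Side by side, the regions over starts or gene ends of the 10 genes numbered 11, of which 9 were called in all 4 hearts, 1 in 3 (Plin5) and 1 in the WT hearts only (Lipe, downstream). Over all 26 regions called in all 4 hearts, the rank was lower in each edKO heart than in each WT heart at 6 (23.1%), against 19.9% of the 16568 such regions, and higher at 11 (42.3%), against 20.2%. Of the 11, 5 lie in the window of Pnpla2 and 3 around Plin4 and Plin5, so they are not independent. At the 20 gene-end regions among the 26 the counts were 5 lower and 9 higher, against 17.8% and 21.8% of the 9227 such regions over all genes. The median rank difference was 3.09 percentile points over the 26 regions and 0.0973 over all 16568. In −log10 p itself, 16 of the 26 were lower in each edKO heart than in each WT heart and 0 were higher. Over all 16568 regions 12373 were lower and 126 higher, so a higher rank here is relative to the other shared regions. Positions of summits were about as reproducible as elsewhere, with a median spread over the 4 hearts of 67.5 bp at the 26 regions and 70 bp at all.

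**Figure D5:**
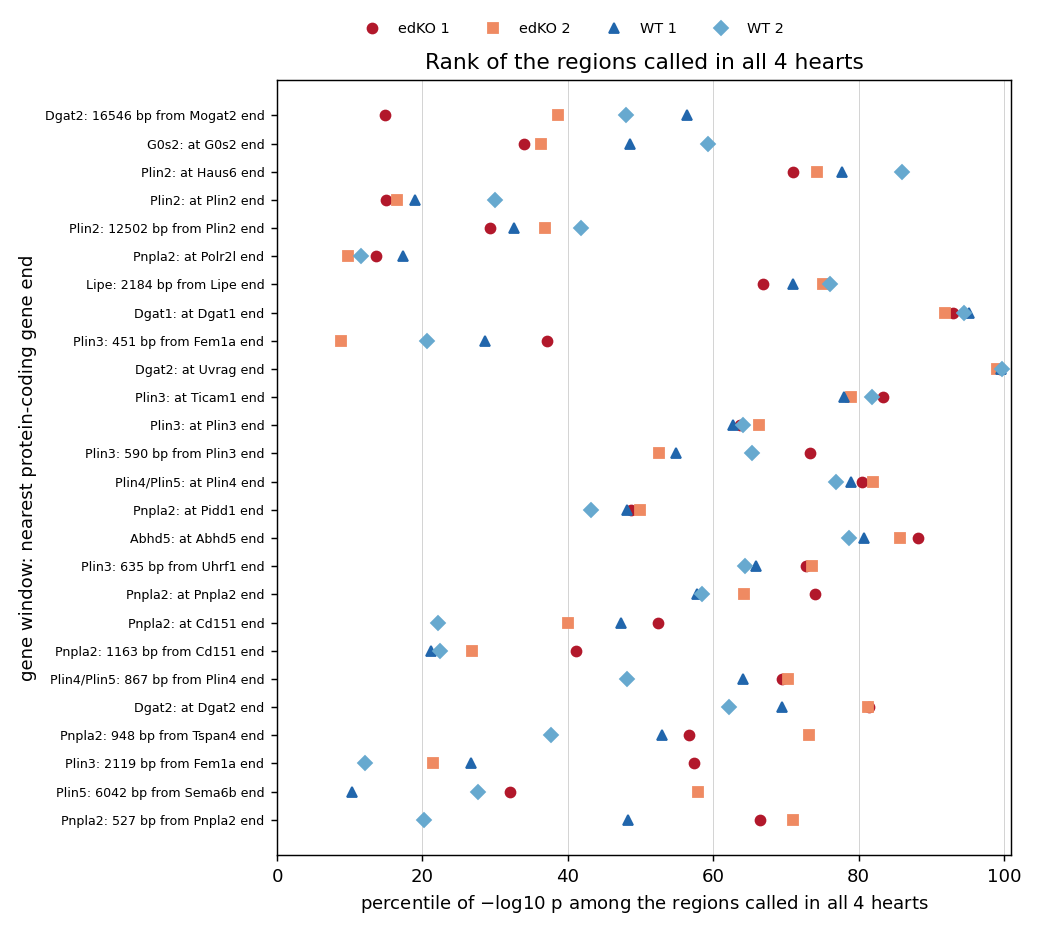
Percentile of each region's −log10 p among the 16568 regions called in all 4 hearts (x axis), ranked within each heart's own list, for the 26 such regions of the 10 genes (y axis, named by window and nearest gene end), sorted by the mean of edKO minus the mean of WT. Values run from −25.4 points between Dgat2 and Mogat2 at the top to 34.5 points inside Pnpla2 at the bottom.

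Other genes of the pathway were counted in the same way. The 27 genes of droplet proteins, triglyceride synthesis and lipolysis had 163 regions. Of these, 91 (55.8%) and 77 (47.2%) were called in edKO 1 and edKO 2, and 116 (71.2%) and 119 (73.0%) in WT 1 and WT 2. Around all protein-coding genes the shares were close to these, at 52.4% and 51.5% in the edKO hearts and 67.2% and 73.4% in the WT hearts. Of the 59 pathway regions called in both edKO hearts, 2 (3.39%) were edKO-only. WT-only regions made up 20 (21.3%) of the 94 with a call in each WT heart. The background over all regions is 1.35% for edKO-only and 19.4% for WT-only calls, and around protein-coding genes 1.24% and 17.7%. The windows of the 27 genes held a median of 5 regions, against 3 over all protein-coding genes. WT-only regions stood in the windows of 13 of the 26 genes that had a region with a call in each WT heart (50%). Over all protein-coding genes with such a region the share was 31.3%, and the number of regions per window was not matched. Among the stronger WT-only regions were 2 in the window of Cidea, which encodes a droplet fusion protein. They had a −log10 p of 13.3 and 22.7 in WT 1 and 17.4 and 17.6 in WT 2, but their nearest gene end was that of Impa2. Mgll, the monoacylglycerol lipase that completes lipolysis, had 2 in its window, 7612 and 28303 bp from its end, at 15.8 and 12.1 in WT 1 and 13.4 and 19.1 in WT 2. Lpin1, a phosphatidic acid phosphatase and transcriptional coactivator, had 2 among the 8 with a call in each WT heart, and Agpat3, an acyltransferase of the same route, 3 among 6. Gpat3 and Lpin3 had 2 each, and Hilpda, Bscl2, Aup1, Hsd17b11, Gpat4, Agpat2 and Mogat1 had 1 each. For Hilpda, Bscl2 and Aup1 the nearest gene end was that of Fam71f2, Lrrn4cl and Htra2 in turn. For the Agpat3 region at chr10:78255824-78256116 it was that of Trappc10. The edKO-only regions lay in the windows of Aup1 and Mogat1, at −log10 p of 5.20 and 7.39 for Aup1 and 4.53 and 4.47 for Mogat1 in edKO 1 and edKO 2. That in the Aup1 window had its nearest gene end at Tlx2.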

How the data were processed

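The authors deposited 1 peak list per library. The submitters' processing notes name MACS2, Bowtie2, SAMtools, cutadapt, bcl2fastq and CASAVA, and the builds mm10 and GRCm38. How duplicates and the Tn5 shift were handled, and with which versions, is not given in the sources used here. The authors' values per peak are the fold enrichment (a ratio to local background in the same library), the −log10 p, the −log10 q-value, the summit position and a score. The deposited score was not used.

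Peaks were merged as stated and calls compared over the 4 libraries in Python 3.11.15 with numpy 2.4.6, pandas 2.3.3 and scipy 1.17.1. Where a library had several peaks in a region, the one with the highest −log10 p was used. Gene positions came from a RefSeq table of GRCm38.p6, with 21631 protein-coding genes on chromosomes 1 to 19 and X. Fragments at a summit were solved from the fold and −log10 p as a whole-number pileup under a Poisson tail, within 0.001 in −log10 p for at least 99.9943% of the peaks of a list. The merging and the solution were tested on simulated data. These fold, p and pileup values describe peaks within a library. Groups and numbers came from the sample titles. The number of regions called was compared by an exact permutation test over libraries, and WT-only and edKO-only regions were counted without a test. With 2 hearts per group no p below 0.333 is possible. The genes, lists and comparisons were chosen with earlier results of these data known. All 10 genes are named, with the regions over their starts or ends, the WT-only and edKO-only regions and the strongest region of each window. Any other region described was chosen after its values were seen. The list of 27 other genes names those with a WT-only or edKO-only region. The use of ranks among shared regions was added after the data had been seen. A region near a gene need not act on it.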

Additional observations from a re-analysis of the deposited data

How the results depend on the processing

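The difference in regions called per library stayed negative (edKO minus WT, −4 regions) in all 15 alternatives run, between −0.5 with lists of equal length and −11 with 50 kb either side. Without 1 library it ranged from −6.5 to −2.5. The replicate numbers only name separate hearts and pair nothing, and with the replicate block the value was −4 (exact permutation p = 0.5, the smallest that 2 pairs allow). No alternative brought p below 0.333. The 2 WT-only regions became 5 of 31 where each list was held to a minimum −log10 p of 10, 5 of 36 when at least 50% of a region had to be covered, and 7 of 59 with 50 kb. They became 1 with lists of equal length, with no extension, and with regions nearest to the 10 genes' own ends. They stayed at 2 or 3 with −log10 p of at least 5, −log10 q of at least 2, 5 kb either side and summit windows of 100 bp either side. Their share was below that of all regions in each of these settings. Leaving out WT 1, WT 2, edKO 1 and edKO 2 in turn, which asks for fewer libraries, gave 8 of 44, 3 of 40, 8 of 36 and 4 of 36 WT-only regions (18.2%, 7.50%, 22.2% and 11.1%, where all regions gave 34.2%, 30.4%, 35.9% and 24.6%). It gave 0 of 27, 1 of 27, 6 of 38 and 3 of 37 edKO-only regions (0%, 3.70%, 15.8% and 8.11%, where all regions gave 2.81%, 3.61%, 24.2% and 10.1%). With lists of equal length 1 region was edKO-only, and in every other setting with 4 libraries none was. The cause of these changes was not tested. Of 140 counts of WT-only regions per gene, 109 stayed within 1.5 times. Without edKO 1 Lipe had 3 WT-only regions, and Plin4 and Plin5 had 2 without edKO 2. Lists of unequal length and enrichment limit what a missing call can show.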
